A study of Homo sapiens with 6 samples.

Results

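*IL1R1* and 9 other cytokine receptor genes (*IL1RAP*, *IL6R*, *IL6ST*, *LIFR*, *OSMR*, *IL4R*, *IL13RA1*, *IL13RA2* and *IL21R*) were described in MRC5 cells, a human lung fibroblast line. These 10 receptors bind IL-1, cytokines of the IL-6 family, IL-4, IL-13 and IL-21. They were picked by name, with earlier results for the same 6 libraries in view, so their values are given here as a description. Where a receptor is said to be called, it passed the threshold of the fit across all genes, which for genes picked in this way is no independent evidence, and their p values are not printed. The deposited table held 58676 gene identifiers, of which 19072 had at least 10 counts summed over the libraries and were tested, and all 10 receptors were among those tested. The fibroblasts spent 24 h in conditioned medium (CM) from ATIIER:KRASV12 cells, an alveolar epithelial type II (ATII) line carrying a KRASV12 protein fused to an estrogen receptor domain, so that 4-hydroxytamoxifen (4-OHT) activates RAS. For 3 libraries the epithelial cells had been left without RAS activation (control ATII CM) and for the other 3 they had been given 4-OHT for 24 h before the CM was taken (4-OHT ATII CM). Both groups therefore received epithelial CM, and no group in fresh medium was analysed here. No library had 4-OHT without RAS activation either, so any 4-OHT carried over in the CM cannot be told apart from RAS activation. The MRC5 cells were grown in DMEM with serum, a single fibroblast line and a single epithelial line were used, and no source used here says whether the replicates were separate cultures, so that p values measure only the spread between these libraries.

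The IL-1 receptor binds its ligand through the IL1R1 chain and then recruits IL1RAP, the shared accessory chain, and the pair signals through the adaptor MYD88 to NF-kB and MAP kinases. The IL-6 family shares IL6ST (gp130), which pairs with itself when IL6R presents IL-6, with LIFR for leukemia inhibitory factor, and with OSMR for oncostatin M, and which signals through JAK kinases and STAT3. IL4R and IL13RA1 form the receptor that nonhematopoietic cells such as fibroblasts use for IL-4 and IL-13 and signal through STAT6, IL13RA2 binds IL-13 and is best known as a decoy, and IL21R pairs with the common gamma chain IL2RG and is known mainly from lymphocytes.

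Promoters are shown for the receptor with the highest fold change among those above 10 CPM (*IL1R1*), for the most abundant per length of exon (*IL6ST*) and for *IL21R*, which had the highest fold change of all 10. The RefSeq promoter table (GRCh38.p14) matched 9 of the 10 receptors with 14 start sites, because *IL1R1* has 4 listed and *LIFR* has 3. For *IL1R1* the window with the highest GC content of its 4 is shown. Each sequence is the 250 bases upstream of a start site, at chr2:102142496-102142745 on the plus strand for *IL1R1*, chr5:55994964-55995213 on the minus strand for *IL6ST* and chr16:27427021-27427270 on the plus strand for *IL21R*, and capitals mark the GC box GGGCGG on either strand.
IL1R1: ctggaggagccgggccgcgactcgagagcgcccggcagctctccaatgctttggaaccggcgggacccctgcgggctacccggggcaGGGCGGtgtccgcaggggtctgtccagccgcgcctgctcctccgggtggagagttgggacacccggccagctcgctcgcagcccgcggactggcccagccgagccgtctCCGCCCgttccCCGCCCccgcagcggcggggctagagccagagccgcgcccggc
IL6ST: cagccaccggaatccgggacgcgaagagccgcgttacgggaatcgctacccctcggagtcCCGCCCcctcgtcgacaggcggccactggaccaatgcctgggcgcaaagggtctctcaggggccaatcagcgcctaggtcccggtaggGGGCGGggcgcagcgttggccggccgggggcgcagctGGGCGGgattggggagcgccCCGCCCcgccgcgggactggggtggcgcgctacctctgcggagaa
IL21R: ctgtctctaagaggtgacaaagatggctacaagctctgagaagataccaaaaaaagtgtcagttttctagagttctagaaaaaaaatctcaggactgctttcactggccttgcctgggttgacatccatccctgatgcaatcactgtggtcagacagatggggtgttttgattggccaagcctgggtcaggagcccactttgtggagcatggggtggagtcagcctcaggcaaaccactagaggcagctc
The *IL1R1* window had a GC content of 76.8%, 31 CpG dinucleotides and 3 GC boxes, and the *IL6ST* window had 73.6%, 31 and 4. The *IL21R* window had a GC content of 49.2%, 0 CpG dinucleotides and no match to any motif searched. It was not alone in this, since a *LIFR* window had 45.2% and 0, and the other 3 windows of *IL1R1* had a GC content of 39.6% to 52.4%. The *IL6R* window and 1 of these windows of *IL1R1* (GC content 52.4%) also held no match. Annotated exons of the same genes covered 0, 30 and 27 bases of these windows, respectively. Over the 14 windows the median GC content was 65.8%, against 58.0% over all 35116 windows of the table. A GC box was found in 8 of the 14 windows, from 7 of the 9 genes, against 42.6% of all windows. The TATA box TATAAA was found in 2 of 14 windows against 10.7% of all windows, and the STAT site TTCNNNGAA in 3 of 14 (1 of *IL1R1* and 2 of *LIFR*) against 6.57%. The AP-1 site TGANTCA was in 0 of 14 windows against 6.57%, and the NF-kB site was in 1 of 14, that of *IL4R*, against 5.21%. Both strands were searched for each motif, and matches of the GC box could overlap each other. These counts describe letters in the windows and were not tested.

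Library totals ranged from 17691849 to 26389449 counts. Levels are given as CPM (the count of a gene relative to its library total) scaled by the TMM method, which corrects library totals for composition. The first principal component (43.4% of the variance) separated the CM groups and the second (23.3%) set control replicate 2 apart from the other libraries. All 10 fibroblast markers were present, with summed levels of 41095 to 44612 CPM in control ATII CM and 42969 to 44711 CPM in 4-OHT ATII CM, most of it *COL1A1* and *COL1A2*. Of these markers 4 were called higher (*COL3A1*, *DCN*, *LUM* and *PDGFRA*) and 1 lower (*VIM*), where 2.95% and 2.76% of all genes were. The number called higher was 4 in every alternative fit. The number called lower ran from 0, as with a replicate block, to 3 without control replicate 2. The part of these markers in the receptor results was not tested. Epithelial markers summed to 93.3 to 99.4 CPM and 91.3 to 97.0 CPM, led by *KRT18*, and *SFTPA1* and *NKX2-1* were at 0. Endothelial markers summed to 121 to 138 CPM and 163 to 172 CPM, nearly all of it *TEK*, while *PECAM1* and *CDH5* were at 0. *TEK* was called higher (log2 fold change 0.37, edgeR adjusted p = 0.000162), and its part in the receptor results was not tested. Division markers summed to 225 to 244 CPM in control ATII CM and 148 to 163 CPM in 4-OHT ATII CM, and all 6 passed the test as lower, and their part in the receptor results was not tested. Because the libraries are from bulk RNA, a change in the share of cells that express a gene and a change in RNA per cell cannot be told apart.

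Among all genes tested, 563 (2.95%) were called higher and 527 (2.76%) lower in 4-OHT ATII CM by edgeR's quasi-likelihood test at an adjusted p below 0.05. Of the 10 receptors, 7 were called higher and 0 lower, where 5.72% of all genes were called either way, a count that the choice of receptors may have set and from which nothing is read. DESeq2 called 6, with no adjusted p given for *IL13RA2* and *IL21R*, and limma-voom called 7. In 7 receptors (*IL1R1*, *IL6R*, *IL6ST*, *OSMR*, *IL4R*, *IL13RA1* and *IL21R*) the libraries of 4-OHT ATII CM lay above those of control ATII CM without overlap, and in 1 (*IL13RA2*) they lay below, where 11.7% and 10.4% of all genes tested did so. The median log2 fold change was 0.15 over the receptors and -0.0020 over all genes tested. Summed over the 10 genes, receptor mRNA was 1992 to 2147 CPM in control ATII CM and 2342 to 2378 CPM in 4-OHT ATII CM.

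**Figure D1:**
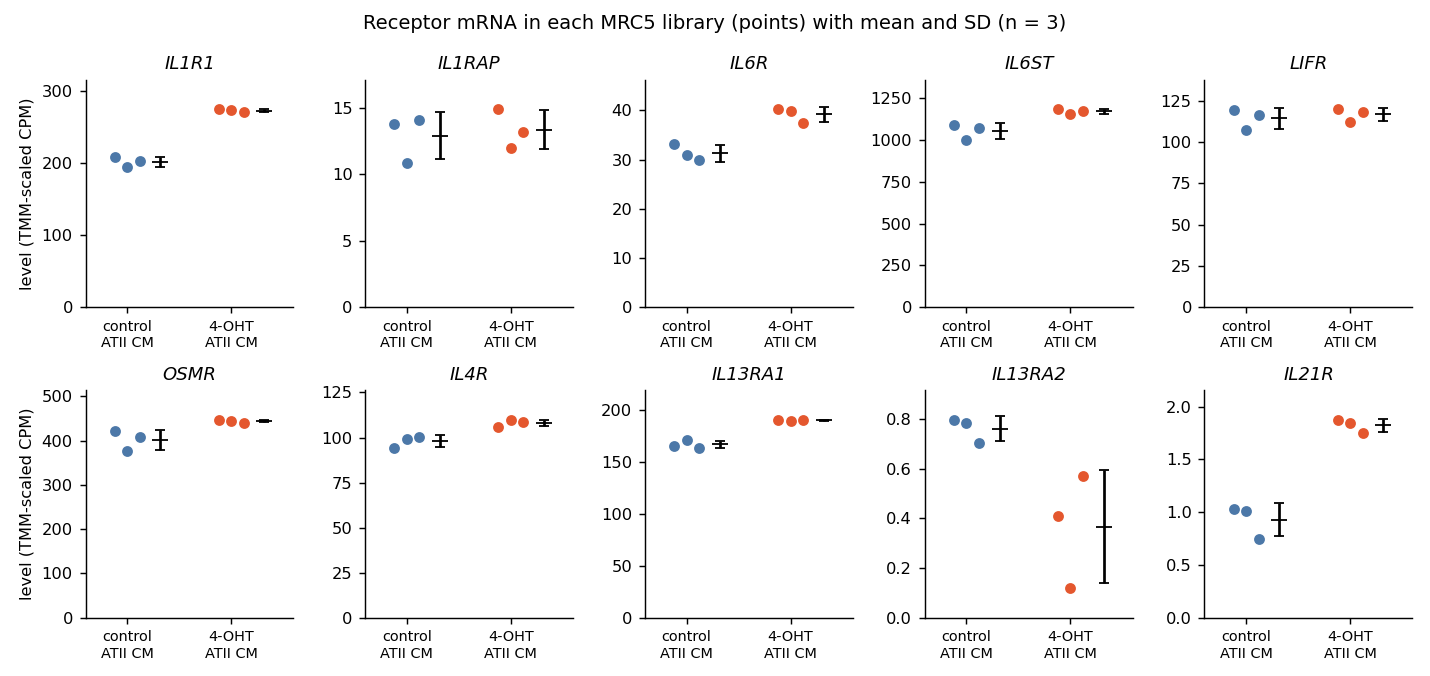
Levels of the 10 receptor genes in each library, in TMM-scaled CPM on axes that start at 0, with points for single libraries and bars for mean and SD (n = 3 in each group). The groups do not overlap for *IL1R1*, *IL6R*, *IL6ST*, *OSMR*, *IL4R*, *IL13RA1* and *IL21R* (4-OHT ATII CM higher) or for *IL13RA2* (lower, at under 1 CPM), and they overlap for *IL1RAP* and *LIFR*.

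*IL1R1* (ENSG00000115594, GRCh38 chr2:102064544-102179874, plus strand), the signaling chain of the IL-1 receptor, had levels of 208, 194 and 203 CPM in control ATII CM and 274, 273 and 271 CPM in 4-OHT ATII CM. The lowest library of 4-OHT ATII CM was thus well above the highest control library, and the 3 libraries of 4-OHT ATII CM lay within a few CPM of each other. Mean levels were 202 ± 6.75 CPM (SD, n = 3) and 273 ± 1.93 CPM (SD, n = 3), a log2 fold change of 0.43 (SE 0.0345), or 35.0% higher. The raw counts behind these levels were 3473 to 4606 per control library and 6008 to 7112 per library of 4-OHT ATII CM, so that counting error was small beside the difference. Its fold change ranked at the 92.0 percentile of all genes tested. It was called in all 14 alternative fits, and leaving out each library in turn moved the log2 fold change only between 0.41 and 0.45. The antisense gene *IL1R1-AS1* shares 11 exon bases with it and had 1 count in all 6 libraries.

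*IL1RAP* (ENSG00000196083, chr3:190514051-190659750, plus strand), the accessory chain that IL1R1 needs to signal, had levels of 13.8, 10.9 and 14.1 CPM in control ATII CM and 14.9, 11.95 and 13.2 CPM in 4-OHT ATII CM. The groups overlapped, and the spread among control libraries (12.9 ± 1.79 CPM, SD, n = 3) was larger than the distance to the mean of 4-OHT ATII CM (13.3 ± 1.48 CPM, SD, n = 3). The log2 fold change was 0.035 (SE 0.104), and its sign turned when 4-OHT replicate 1 (-0.041) or control replicate 2 (-0.067) was left out. The ligand-binding chain and the accessory chain thus had different values in the same libraries.

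*IL6R* (ENSG00000160712, chr1:154405193-154469450, plus strand), the chain that binds IL-6, had levels of 33.2, 30.9 and 29.8 CPM in control ATII CM and 40.2, 39.9 and 37.4 CPM in 4-OHT ATII CM. The groups did not overlap, with means of 31.3 ± 1.73 CPM (SD, n = 3) and 39.2 ± 1.51 CPM (SD, n = 3). The log2 fold change was 0.32 (SE 0.0538), a fold of 1.25, and *IL6R* was called in all 14 alternative fits. *IL6R-AS1*, which lies opposite and shares no exon bases with it, had 53 counts in all.

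*IL6ST* (ENSG00000134352, chr5:55935095-55994993, minus strand), the gp130 chain shared by the IL-6 family, had levels of 1089, 999 and 1071 CPM in control ATII CM and 1184, 1159 and 1171 CPM in 4-OHT ATII CM. Control replicate 2 was the lowest library, and the groups did not overlap. Means were 1053 ± 47.6 CPM (SD, n = 3) and 1171 ± 12.7 CPM (SD, n = 3), a log2 fold change of 0.15 (SE 0.0323), or 11.2% higher. Without control replicate 2 the log2 fold change was 0.12 and *IL6ST* was still called, whereas without 4-OHT replicate 3 (0.15) it was not. A transcript of the pseudogene *IL6STP1* covers 91.0% of an *IL6ST* transcript at 93.0% identity and had 8 counts in all, so few reads were assigned to the copy.

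*LIFR* (ENSG00000113594, chr5:38474963-38608354, minus strand), which pairs with gp130 for leukemia inhibitory factor, had levels of 119.8, 107 and 117 CPM in control ATII CM and 119.9, 112 and 118 CPM in 4-OHT ATII CM. The groups overlapped almost fully, and control replicate 2 was again the lowest library. The means of 115 ± 6.49 CPM (SD, n = 3) and 117 ± 4.07 CPM (SD, n = 3) gave a log2 fold change of 0.027 (SE 0.0445), which turned to -0.016 without control replicate 2. The antisense gene *LIFR-AS1* shares 5.30% of the exon bases of *LIFR* and had 137 counts in all.

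*OSMR* (ENSG00000145623, chr5:38845858-38945596, plus strand), which pairs with gp130 for oncostatin M, lies 237.5 kb from *LIFR* on the same chromosome. Its levels were 421, 377 and 408 CPM in control ATII CM and 446, 445 and 441 CPM in 4-OHT ATII CM. The groups did not overlap, with the wider spread in the control group (402 ± 22.6 CPM, SD, n = 3) and a narrow one in 4-OHT ATII CM (444 ± 2.89 CPM, SD, n = 3). The log2 fold change was 0.14 (SE 0.0376), or 10.3% higher. Without control replicate 2, the lowest library, it was 0.10 and *OSMR* was still called. The call was lost with the libraries thinned to the smallest total, and without 4-OHT replicate 1 (0.14), 4-OHT replicate 2 (0.14), 4-OHT replicate 3 (0.14) or control replicate 3 (0.15). *RICTOR*, on the opposite strand, overlaps 3.19% of the exon bases of *OSMR* and had 3272 counts in all.

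*IL4R* (ENSG00000077238, chr16:27313668-27364778, plus strand), the chain that binds IL-4, had levels of 94.4, 99.3 and 100.3 CPM in control ATII CM and 106, 109.7 and 108 CPM in 4-OHT ATII CM. The groups did not overlap, with means of 97.99 ± 3.15 CPM (SD, n = 3) and 108 ± 1.83 CPM (SD, n = 3). The log2 fold change was 0.14 (SE 0.0381), or 10.3% higher, as for *OSMR*. Its call was the least stable of the 7 and held in 7 of 14 alternative fits. It was lost with thinned libraries, with the replicate block (0.14) and without 4-OHT replicate 1 (0.16), 4-OHT replicate 2 (0.13), 4-OHT replicate 3 (0.14), control replicate 1 (0.11) or control replicate 3 (0.15).

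*IL13RA1* (ENSG00000131724, chrX:118727572-118794539, plus strand), which binds IL-13 and pairs with IL4R, had levels of 165, 171 and 164 CPM in control ATII CM and 190.0, 189 and 189.9 CPM in 4-OHT ATII CM. The 3 libraries of 4-OHT ATII CM were nearly the same and all above the control libraries. Means were 167 ± 3.71 CPM (SD, n = 3) and 189.8 ± 0.279 CPM (SD, n = 3), a log2 fold change of 0.19 (SE 0.0338), or 14.0% higher. *IL13RA1* was called in all 14 alternative fits, so that of the 2 chains of this receptor it had the more stable call.

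*IL13RA2* (ENSG00000123496, chrX:115003975-115019977, minus strand), the decoy for IL-13, was the only receptor with lower values in 4-OHT ATII CM. Its raw counts were 17, 14 and 16 in the control libraries and 9, 3 and 15 in those of 4-OHT ATII CM, which is 0.796, 0.784 and 0.706 CPM against 0.411, 0.120 and 0.571 CPM. The groups did not overlap in CPM, but the spread within 4-OHT ATII CM was wide and the counts were few. The log2 fold change of -1.03 (SE 0.417) was not called in the 13 alternative fits that gave an adjusted p. It was -0.61 without 4-OHT replicate 2, the library with 3 counts.

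*IL21R* (ENSG00000103522, chr16:27402162-27452042, plus strand), the IL-21 receptor, lies 37.4 kb from *IL4R*. Its raw counts were 22, 18 and 17 in the control libraries and 41, 46 and 46 in those of 4-OHT ATII CM, or 1.03, 1.01 and 0.750 CPM against 1.87, 1.84 and 1.75 CPM. The groups did not overlap, with means of 0.930 ± 0.156 CPM (SD, n = 3) and 1.82 ± 0.0642 CPM (SD, n = 3). The log2 fold change was 0.97 (SE 0.226), the highest among the receptors. Its call was lost without 4-OHT replicate 2 (0.96) and without control replicate 3 (0.83). *IL2RG*, the chain with which IL21R signals, had 0 of 135093001 counts, which allows a level of up to 0.0222 CPM by counting error alone. Because *IL21R* is known from leukocytes, the 10 leukocyte markers were read beside it. They summed to 0.843 to 1.18 CPM in control ATII CM and 1.28 to 1.94 CPM in 4-OHT ATII CM, led by *CD14*. *CD14* had 0.766 ± 0.178 and 1.48 ± 0.409 CPM (SD, n = 3), a log2 fold change of 0.97 (SE 0.283) without overlap, about that of *IL21R*. It was not called (edgeR adjusted p = 0.0597), but 1 marker of the list was called without a filter on low counts, without 4-OHT replicate 1 and without control replicate 2. *PTPRC*, which marks leukocytes as a class, had 2 counts in all libraries and *CD3E*, *CD3D* and *MS4A1* were at 0. The part of these markers in the *IL21R* values was not tested. *IL21R-AS1* lies opposite 23.3% of the exon bases of *IL21R* and had 0 counts, and whether strand was used in counting is not given in the sources used here.

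**Figure D2:**
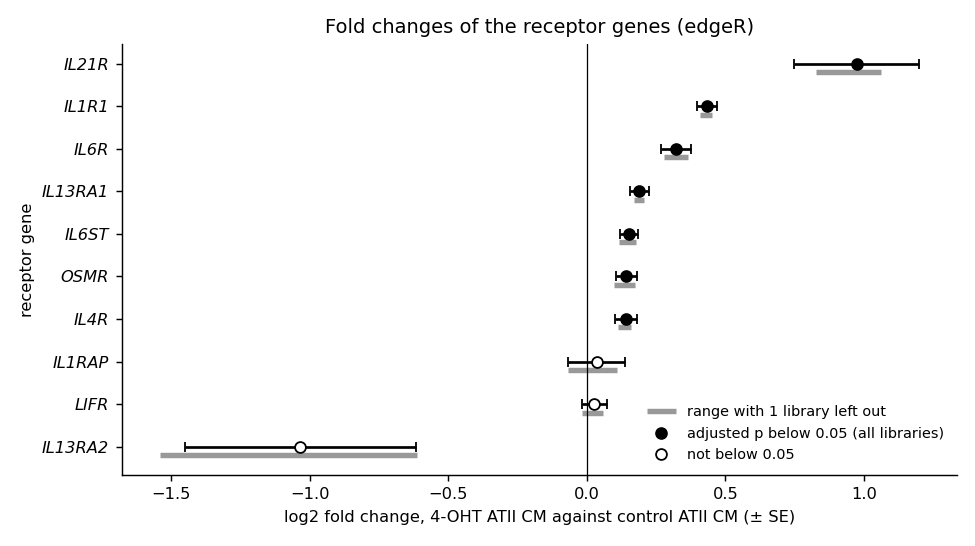
Log2 fold change of each receptor gene (4-OHT ATII CM against control ATII CM, edgeR) with its SE, with filled points for genes called at an adjusted p below 0.05 and grey bars for the range when 1 library was left out. *IL1R1* at 0.43 has a grey bar of 0.41 to 0.45, whereas that of *IL13RA2* runs from -1.54 to -0.61 and those of *IL1RAP* and *LIFR* cross 0.

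To compare levels of different genes, CPM values were divided by the length of each gene's merged exons, in CPM per kilobase. By that measure *IL6ST* was highest at a mean of 119.7 over the 6 libraries, followed by *OSMR* at 59.0, *IL13RA1* at 40.8 and *IL1R1* at 33.5. *IL4R* (17.5), *LIFR* (9.75) and *IL6R* (5.46) formed the middle of the order, and *IL1RAP* (1.14), *IL13RA2* (0.347) and *IL21R* (0.252) the end. Neighbors in the order did not overlap within either CM group, except that *IL13RA2* and *IL21R* overlapped in 4-OHT ATII CM. Their order held in control ATII CM (means of 0.469 and 0.170) and was the other way in 4-OHT ATII CM (0.226 and 0.333). When both groups were put together *IL13RA1* and *IL1R1* overlapped too, since *IL1R1* in 4-OHT ATII CM (38.2 to 38.7) reached the control level of *IL13RA1* (37.4 to 39.0).

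**Figure D3:**
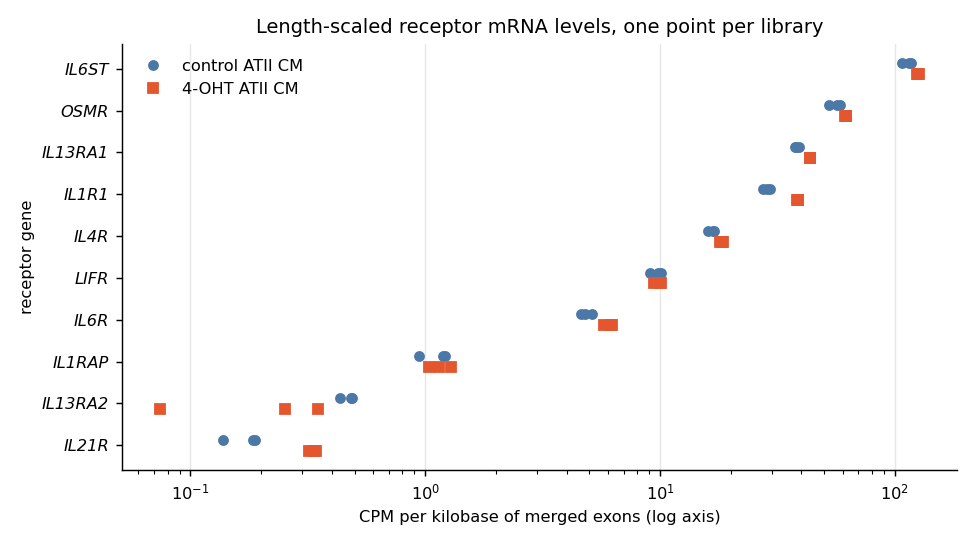
Length-scaled level of each receptor gene in each library, in CPM per kilobase of merged exons on a log axis, with circles for control ATII CM and squares for 4-OHT ATII CM. *IL6ST* stands highest at 108 to 127, and *IL13RA2* and *IL21R* stand lowest, all at under 0.5.

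Ratios of these length-scaled levels within a library show how the mRNAs for the chains of 1 receptor stood to each other. The ratio of *IL1R1* to *IL1RAP* was 24.5, 29.2 and 23.6 in the control libraries and 30.1, 37.3 and 33.4 in those of 4-OHT ATII CM. By this measure the mRNA of the binding chain was in large excess in every library. The ratio was higher in 4-OHT ATII CM (33.6 ± 3.60, SD, n = 3) than in control ATII CM (25.8 ± 3.02, SD, n = 3), without overlap. Merged exons include all annotated exons of a gene, used or not, and amounts of protein were not measured. The ratio of *IL6ST* to *IL6R* was 23.4 ± 1.34 in control ATII CM and 20.8 ± 0.831 in 4-OHT ATII CM (SD, n = 3), lower without overlap. That of *IL6ST* to *LIFR* was 11.7 ± 0.140 and 12.8 ± 0.326 (SD, n = 3), higher without overlap. *OSMR* to *LIFR* went from 5.81 ± 0.0122 to 6.29 ± 0.231 (SD, n = 3), also without overlap. *IL6ST* to *OSMR*, by contrast, overlapped at 2.02 ± 0.0241 and 2.04 ± 0.0225 (SD, n = 3), and *IL13RA1* to *IL4R* overlapped at 2.29 ± 0.0847 and 2.37 ± 0.0435 (SD, n = 3). The ratio of *IL13RA1* to the decoy *IL13RA2* was 77.2 to 86.2 in control ATII CM and 124 to 586 in 4-OHT ATII CM, where the few counts of *IL13RA2* set its range.

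**Figure D4:**
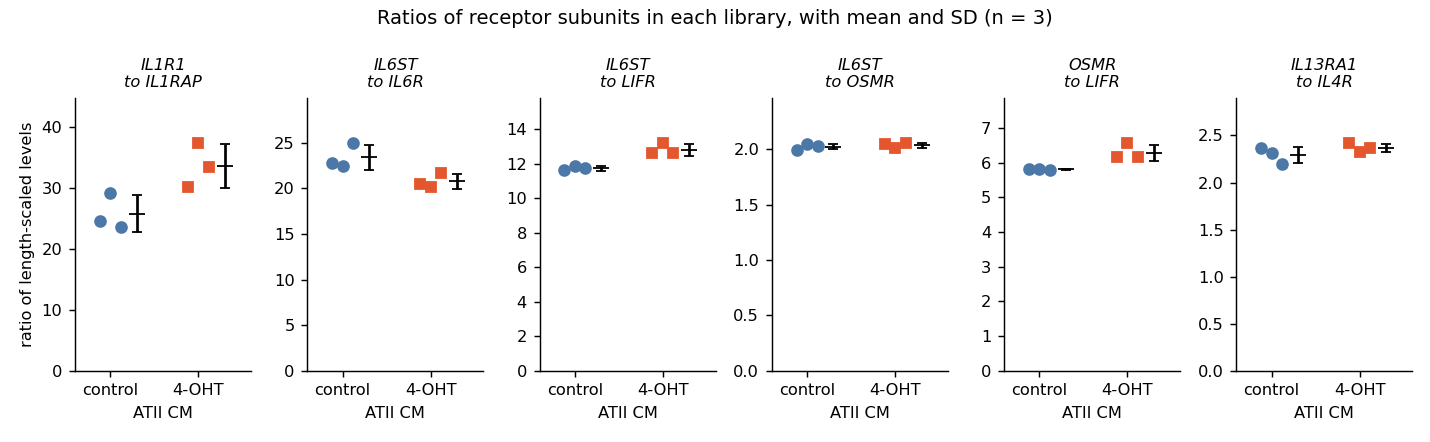
Ratios of length-scaled mRNA levels of receptor chains in each library, on axes that start at 0. Circles are for control ATII CM, squares for 4-OHT ATII CM and bars for mean and SD (n = 3 in each group). The *IL1R1* to *IL1RAP* ratio lies at 23.6 to 29.2 in control ATII CM and 30.1 to 37.3 in 4-OHT ATII CM, whereas the *IL6ST* to *OSMR* and *IL13RA1* to *IL4R* ratios overlap.

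The genes most like *IL1R1* over the 6 libraries were found by the root mean square difference of log2 CPM values, each centered on its own mean, among 9201 genes with a mean of at least 10 CPM. The nearest were *NPR3* (0.0312), the natriuretic peptide clearance receptor, *COLEC12* (0.0318), a scavenger receptor, and *WNT2* (0.0335), a Wnt ligand. *NPR3* had levels of 23.5 ± 1.23 and 31.4 ± 1.08 CPM in control and 4-OHT ATII CM, *COLEC12* had 30.1 ± 1.81 and 40.1 ± 0.723 CPM, and *WNT2* had 63.6 ± 2.17 and 84.2 ± 1.77 CPM (SD, n = 3). Among the receptors *IL6R* was closest to *IL1R1*, at rank 62, followed by *IL13RA1* at rank 373, *IL6ST* at 496, *OSMR* at 603 and *IL4R* at 779, with *LIFR* (3056) and *IL1RAP* (5088) far behind. Apart from *LIFR* and *IL1RAP*, this is also the order of their log2 fold changes, so the ranks are no further evidence.

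Other receptors were read beside these 10. Of 8 other receptors of the IL-1 family 5 were tested and 1 was called, beside 5.72% of all genes. It was *IL18R1*, the binding chain of the IL-18 receptor, at 8.44 ± 0.181 and 10.7 ± 0.559 CPM (SD, n = 3). Its log2 fold change was 0.34 (SE 0.0872, edgeR adjusted p = 0.0308, range over alternatives 0.0160 to 0.157), higher in 3 of 3 libraries, and the call was lost in DESeq2, with thinned libraries and when any 1 library was left out. *IL1RL1*, the IL-33 receptor, had 2 to 13 counts per library, overlapped and was not called, and the decoy *IL1R2* had 8 counts in all and was not tested. Of 42 receptors for other cytokines 25 were tested, and edgeR, DESeq2 and limma-voom each called 0, with 7 at an unadjusted p below 0.05 in edgeR, against 3306 of 19072 over all genes. *IL11RA*, which also pairs with gp130, had 15.2 ± 1.40 and 13.4 ± 1.26 CPM (SD, n = 3), a log2 fold change of -0.20 with overlap (edgeR adjusted p = 0.274, range 0.0850 to 0.624). *CNTFR*, the ciliary neurotrophic factor receptor, had 1 count in all. The median log2 fold change over the 5 tested receptors of the IL-1 family was 0.046, but it ran from -0.011 without control replicate 1 to 0.31 without 4-OHT replicate 1. Over the 25 receptors for other cytokines it was 0.050, and -0.0037 without 4-OHT replicate 2.

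Ligands that the fibroblasts could make themselves gave no calls. Of 22 listed, 9 were tested and edgeR, DESeq2 and limma-voom each called 0, a count from which nothing is read beside 5.72% of all genes in edgeR. At an unadjusted p below 0.05 in edgeR there was 1, against 3306 of 19072 over all genes. The median log2 fold change was -0.050, which turned to 0.032 with thinned libraries and 0.014 without control replicate 1. *IL1B*, a ligand of IL1R1, had 2, 2 and 2 counts in the control libraries and 2, 5 and 7 in those of 4-OHT ATII CM, and *IL1RN*, the IL-1 receptor antagonist, had 0 of 135093001 counts. *IL6* had 4.18 ± 0.529 and 3.91 ± 0.315 CPM (SD, n = 3) with overlap (log2 fold change -0.10, edgeR adjusted p = 0.789, range 0.546 to 0.953). *LIF*, the ligand of LIFR, was at 45.8 ± 1.42 and 45.5 ± 2.38 CPM (SD, n = 3), also with overlap. *IL11*, the ligand of IL11RA, was at 27.6 ± 2.82 and 24.5 ± 0.735 CPM (SD, n = 3), with a log2 fold change of -0.17 (edgeR adjusted p = 0.209, range 0.0450 to 0.448), and it was called only without control replicate 1. Of 8 genes for receptor shedding, 0 were called by the same 3 tools, again beside 5.72% of all genes in edgeR, and nothing is read from this count. At an unadjusted p below 0.05 in edgeR there was 1, against 3306 of 19072 over all genes. Their median log2 fold change was 0.012 (-0.0034 without control replicate 2). *ADAM17*, the protease that sheds IL6R, had 47.5 ± 3.83 and 50.9 ± 0.689 CPM (SD, n = 3) with overlap (edgeR adjusted p = 0.372, range 0.0714 to 0.657).

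Downstream of *IL1R1*, 1 of 28 genes of IL-1 signaling was called, the ubiquitin ligase gene *PELI2*, at 19.7 ± 0.725 and 23.1 ± 0.777 CPM (SD, n = 3). Its log2 fold change was 0.23 (SE 0.0622, edgeR adjusted p = 0.0446, range 0.0202 to 0.172), higher in 3 of 3 libraries, and the call was lost in 9 of 14 alternatives, among them DESeq2. *MYD88*, the adaptor, had 54.8 ± 1.31 and 59.4 ± 0.650 CPM (SD, n = 3) without overlap, but it was not called (log2 fold change 0.12, edgeR adjusted p = 0.105, range 0.0436 to 0.317) except without control replicate 2. *IRAK3*, an inhibitor of the pathway, had 10.7 ± 0.978 and 12.3 ± 0.472 CPM (SD, n = 3) with overlap and was not called. Of 19 tested genes known to respond to IL-1, 1 was called, the adhesion molecule *VCAM1*, at 77.4 ± 3.87 and 91.9 ± 3.60 CPM (SD, n = 3). It had a log2 fold change of 0.25 (SE 0.0446, edgeR adjusted p = 0.00325, range 3.05e-07 to 0.0291), higher in 3 of 3 libraries. Without control replicate 3, and without a filter on low counts, 1 gene of this list was also called lower. The median over these 19 genes was -0.0095, against -0.0020 over all genes tested, and it ran from -0.038 without 4-OHT replicate 2 to 0.017 without control replicate 2, fits in which 18 of the 19 were tested. The 28 signaling genes had a median of 0.066. Calls of 1 in 28 and 1 in 19 stood beside 5.72% of all genes tested. At an unadjusted p below 0.05 in edgeR there were 11 of the 28 signaling genes and 3 of the 19 responsive genes, against 3306 of 19072 over all genes. In 11 of the 28 the groups did not overlap with 4-OHT ATII CM higher and in 1 with it lower, against 11.7% and 10.4% of all genes.

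On the side of the gp130 and IL-4 receptors, 4 of 31 tested JAK-STAT genes were called higher and 0 lower, where 2.95% and 2.76% of all genes were, with a median log2 fold change of 0.047. *SOCS3*, the feedback inhibitor of gp130 signaling, had 91.1 ± 3.13 and 114 ± 1.93 CPM (SD, n = 3), a log2 fold change of 0.32 (SE 0.0385, edgeR adjusted p = 0.000135, range 1.45e-12 to 0.00239), higher in 3 of 3 libraries. *STAT3*, the main transcription factor downstream of gp130, had 274 ± 2.63 and 303 ± 6.88 CPM (SD, n = 3), a log2 fold change of 0.15 (SE 0.0322, edgeR adjusted p = 0.0118, range 0.000882 to 0.0875), higher in 3 of 3. Its call was lost without 4-OHT replicate 2, 4-OHT replicate 3 or control replicate 3, and in each of these fits 2 of the 31 genes were called. Among the other called genes of the list, and named after its values were seen, was the phosphatase gene *PTPN1*. *JAK1*, a kinase bound by gp130, was at 225 ± 9.32 and 224 ± 2.16 CPM (SD, n = 3), and *STAT6*, which acts downstream of IL4R, was at 182 ± 6.65 and 191 ± 4.30 CPM (SD, n = 3), and neither was called.

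Of 14 genes known to respond to STAT3, 5 were called higher and 0 lower, where 2.95% and 2.76% of all genes were, and the median log2 fold change was 0.16. *SOCS3* and *STAT3* were among them, so this count and that of the JAK-STAT genes are not independent. *A2M*, a protease inhibitor, had 98.7 ± 7.44 and 127 ± 3.36 CPM (SD, n = 3), a log2 fold change of 0.36 (SE 0.0482, edgeR adjusted p = 0.000331, range 6.0e-16 to 0.00521), higher in 3 of 3 libraries. *CEBPD*, a transcription factor of the acute-phase response, had 176 ± 9.71 and 209 ± 3.44 CPM (SD, n = 3), a log2 fold change of 0.25 (SE 0.0405, edgeR adjusted p = 0.00128, range 2.17e-09 to 0.0134), higher in 3 of 3. The other called gene, again named after its values were seen, was the related factor *CEBPB*. Without 4-OHT replicate 2, 3 of 13 tested were called, and without 4-OHT replicate 3, 3 of 14. Of 6 tested genes known to respond to STAT6, 2 were called higher beside the same 2.95%, *VCAM1*, which the IL-1 list also holds, and the transglutaminase *TGM2*, and the median over the 6 was 0.14 (0.24 without 4-OHT replicate 2). *TGM2* had 249 ± 3.15 and 325 ± 3.17 CPM (SD, n = 3), a log2 fold change of 0.38 (SE 0.0312, edgeR adjusted p = 4.19e-06, range 3.3e-24 to 0.000207), higher in 3 of 3. The lists were read beside the receptors and no test links the one to the other.

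**Figure D5:**
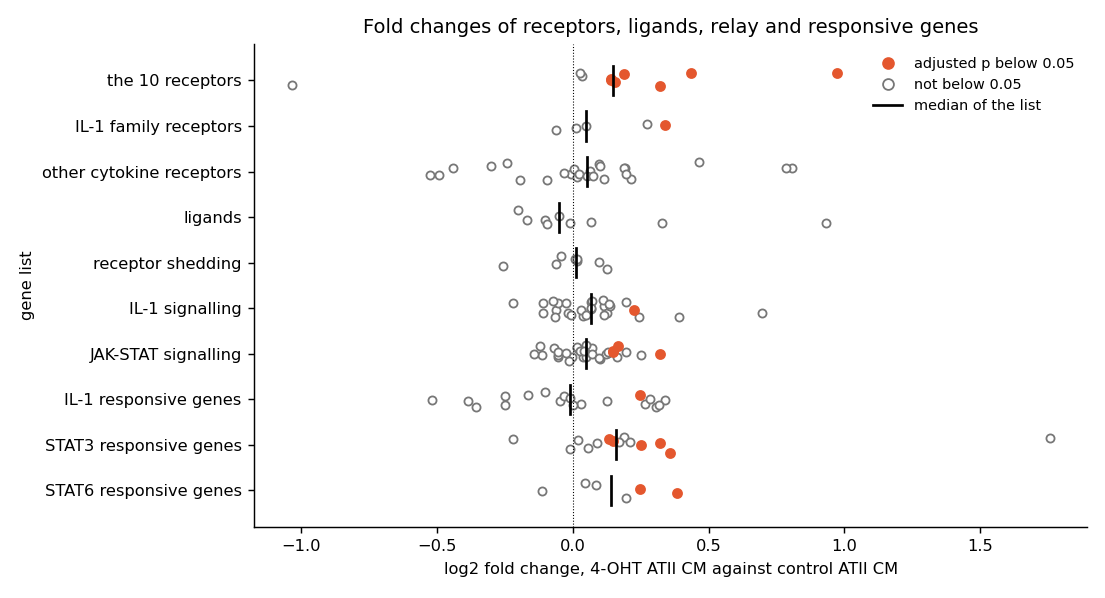
Log2 fold change (4-OHT ATII CM against control ATII CM, edgeR) of each tested gene in the receptor, ligand, shedding, signaling and responsive lists, with orange points for genes called at an adjusted p below 0.05, open points for the rest and black bars for list medians. The 10 receptors have a median of 0.15, the STAT3 responsive genes of 0.16 and the IL-1 responsive genes of -0.0095.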

How the data were processed

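Poly(A) RNA was sequenced as 2 × 150 paired ends from 6 libraries. According to the study's methods and the labels, the authors used Trim Galore for trimming, HISAT2 2.1.0 for mapping to GRCh38 and featureCounts 1.6.5 for counting. The deposited values are raw counts per gene, with the merged exon length in bases. Strand setting, multi-mapping and annotation release are not given in the sources used here, so reads of genes that overlap on opposite strands may not be told apart. Symbols came from GENCODE release 44, and from RefSeq for identifiers without a symbol there. For 45 identifiers listed on X and Y, counts were added.

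Genes with at least 10 counts summed over 6 libraries were TMM-normalized. The main test was edgeR's quasi-likelihood test (edgeR 4.0.16 in R 4.3.3) of the CM group without covariates, with Benjamini-Hochberg adjustment over 19072 genes (threshold 0.05). SEs were computed as the fold change over the root of F. Log2 CPM for the first components and likeness used a prior count of 2. DESeq2 1.42.0, limma-voom (limma 3.58.1), other scalings, other filters, thinning, a replicate block and leaving out each library were alternatives. The tests were checked on simulated counts. Transcripts were compared with other transcripts and 261 alternate contigs using minimap2 2.31.

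The receptors, the gene lists and the tests were chosen with earlier results of these data known. Genes named are the 10 receptors, up to 3 called genes per direction in each list by smallest p, a fixed set of ligands, receptors and signaling genes named whatever their values, and the 3 genes most like *IL1R1*. Results of some genes under this rule are left out here. Of 236 listed genes 235 were found, and the other was not analysed here. Replicates of a group differed by more than sampling noise (chi-square per degree of freedom 2.12 to 6.03). Library totals of 17691849 to 26389449 counts left a common dispersion whose square root was 4.36%.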

Additional observations from a re-analysis of the deposited data

How the results depend on the processing

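Of 456 log2 fold changes computed over the alternatives for 33 named genes, 408 kept their direction and side of the threshold, 35 lost and 2 gained a call, and 11 turned sign. The sign turned for *IL1RAP* without 4-OHT replicate 1 (-0.041) and without control replicate 2 (-0.067), for *LIFR* without control replicate 2 (-0.016), for *IL1RL1* without control replicate 1 (-0.18), for *LIF* with thinned libraries (0.032), without 4-OHT replicate 1 (0.036) and without control replicate 1 (0.014), and for *JAK1* without a filter (0.0048), without 4-OHT replicate 2 (0.0025), without control replicate 1 (0.0042) and without control replicate 3 (0.014), all genes that were not called. Over the fits without 1 library these genes reached 0.11 (*IL1RAP*), 0.059 (*LIFR*), 0.97 (*IL1RL1*), -0.042 (*LIF*) and -0.037 (*JAK1*) at the other end. All 62 recomputed levels and ratios stayed within 1 SD, but nothing is read from this, because the limit could hardly be passed. Leaving out 1 of 3 libraries cannot move the mean of a group by 1 SD. For levels the SD was taken over both groups together, so it includes the difference between them. Without a filter on low counts, 875 genes were called higher and 11 responsive genes were called (7 with it), 8 of them of the STAT3 list (5 with it). Called genes among the receptors outside the 10, those of the IL-1 family and of other cytokines together, fell from 1 (*IL18R1*) to 0 in DESeq2 and with thinned libraries, and ligand and signaling genes called from 5 to 3 with thinned libraries. The cause was not tested. Leaving out 1 library gave 289 to 696 genes called higher, 244 to 834 called lower, 4 to 7 receptors called higher and 0 called lower, 0 receptors outside the 10, 2 to 7 ligand and signaling genes and 5 to 8 responsive genes. The receptors called fell to 4 without 4-OHT replicate 2, 4-OHT replicate 3 or control replicate 3. In each such fit fewer samples were used.

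The replicate numbers did not pair the samples (correlations of same-numbered deviations -0.014, -0.10 and -0.093), and 0 of the 6 libraries correlated best with the library of its own number. With a replicate block, 502 genes were called higher and 483 lower, and 6 receptors, *IL4R* having lost its call. DESeq2 gave no adjusted p for *IL13RA2*, *IL21R*, *IL1RL1* and *IL1B*, and edgeR's filterByExpr removed *IL1RL1* and *IL1B*. Depth limits *IL13RA2*, with 3 to 17 counts per library, and *IL21R*, with 17 to 46.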
